A study of Mus musculus with 4 samples.

Results

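The regions described here are stretches of chromatin that were less open in the other effector T helper cells of the lung than in regulatory T (Treg) cells and than in T helper 2 (Th2) cells, and that appeared in no other comparison. They were chosen by where they were listed: the rows of the 6 deposited tables of differential regions were joined wherever they overlapped by at least 1 bp, and a joined region was kept when it held rows of the table of other effector against Treg cells and of the table of other effector against Th2 cells, and of no other table. This gave 8353 regions of 52537 in all, or 15.9%. All 8353 had 1 row in each table, with the same coordinates in both.

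The data are from ATAC-seq, in which a transposase inserts sequencing adapters where DNA is accessible. Mice were sensitised and challenged with house dust mite (HDM) extract, a model of allergic asthma, and 4 populations of CD3+CD4+ cells were sorted at day 15, with 1000 cells in each of 3 biological replicates per population. Other effector cells were CD44+ST2-CD30L+, Treg cells were CD25hiCD30L-, Th2 cells were CD44+ST2+CD30L+, and naive cells were sorted as CD44lo. The protocol takes the naive cells from mLN and the rest from lung tissue that includes the airways, although the naive sample is labelled as lung, so organ and state cannot be told apart for naive cells. Per the labels all mice had received HDM, and neither strain nor age is stated. The other effector and naive samples are titled day 15 but described as D10, so their day is uncertain, and if it was D10, day and population cannot be told apart in the folds given here. The gates set ST2 (Il1rl1), CD25 (Il2ra), CD30L (Tnfsf8) and CD44, among others, and differences at these genes are no findings.

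Each row of a table gives a position and 1 fold, with no value per library. The folds are those of the authors' deposited tables on a log2 scale, written as the first population minus the second, so a negative value means a region less open in other effector cells. No spread between replicates can be given, and the depth of the libraries is unknown. Every row that involves other effector cells pointed the same way: 24765 of 24765 rows against Treg cells and 28175 of 28175 rows against Th2 cells were negative, and 17700 of 17700 rows of naive against other effector cells were positive. Whether the other effector libraries differed from the rest in depth or in quality was not tested. Of all joined regions, 46.7% were listed as lower in other effector cells than in Treg cells and 53.2% as lower than in Th2 cells. Both shares are part of the rule.

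Accessible chromatin falls into promoters, at the starts of genes, and distal elements such as enhancers. Promoters rich in CpG dinucleotides, typical of genes that most cells use, tend to be open in many cell types, while distal elements are more often particular to a lineage. Gata3 directs the Th2 fate and Foxp3 the Treg fate. Direction was checked on such genes in comparisons that held both signs. All 3 Foxp3 regions listed for Treg against Th2 cells were higher in Treg cells. All 8 regions of Il4, Il5 and Il13 listed for naive against Th2 cells were lower in naive cells. In naive minus other effector cells all 58 listed regions of Ccr7, Lef1 and Tcf7 were positive. Every row of that comparison was positive, so these genes cannot check its direction.

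Promoters of 10 genes are shown because a region of the set covers the whole of each promoter and because they differ in letters. Nfkbia, Sp1, Fbrs, Sp4, Cdca3 and Rab40c had the largest mean absolute folds among regions that cover a promoter, while Gata3, Il2ra, Zfp143 and Hnrnpa3 stand for a T cell fate gene, a cytokine receptor gene, a zinc finger gene and an RNA-binding protein gene. Each line gives the 250 bases before the annotated start, on the strand of the gene, from RefSeq on GRCm38.p6. Capitals mark matches to any of 14 motifs listed with their shares later in the text. Positions are, in the same order, chr12:55492648-55492897 (minus strand), chr15:102406066-102406315 (plus strand), chr7:127478708-127478957 (plus strand), chr12:118301441-118301690 (minus strand), chr6:124829926-124830175 (plus strand), chr17:25919715-25919964 (minus strand), chr2:9878601-9878850 (minus strand), chr2:11642542-11642791 (plus strand), chr7:110061452-110061701 (plus strand) and chr2:75659009-75659258 (plus strand).
Nfkbia: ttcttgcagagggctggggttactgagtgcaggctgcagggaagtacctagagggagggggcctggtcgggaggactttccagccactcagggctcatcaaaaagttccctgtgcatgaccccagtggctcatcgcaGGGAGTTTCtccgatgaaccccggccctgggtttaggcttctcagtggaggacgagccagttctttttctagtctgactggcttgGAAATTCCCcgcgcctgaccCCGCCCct
Sp1: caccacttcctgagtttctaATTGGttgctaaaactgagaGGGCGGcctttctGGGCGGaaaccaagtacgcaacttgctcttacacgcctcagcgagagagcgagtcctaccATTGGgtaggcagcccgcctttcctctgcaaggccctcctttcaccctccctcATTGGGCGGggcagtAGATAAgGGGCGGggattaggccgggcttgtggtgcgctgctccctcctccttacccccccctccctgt
Fbrs: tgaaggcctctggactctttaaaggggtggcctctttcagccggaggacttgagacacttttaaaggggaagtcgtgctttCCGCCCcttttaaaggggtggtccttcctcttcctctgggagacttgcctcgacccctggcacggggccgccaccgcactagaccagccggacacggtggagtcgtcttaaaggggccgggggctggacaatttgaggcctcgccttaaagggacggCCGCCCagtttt
Sp4: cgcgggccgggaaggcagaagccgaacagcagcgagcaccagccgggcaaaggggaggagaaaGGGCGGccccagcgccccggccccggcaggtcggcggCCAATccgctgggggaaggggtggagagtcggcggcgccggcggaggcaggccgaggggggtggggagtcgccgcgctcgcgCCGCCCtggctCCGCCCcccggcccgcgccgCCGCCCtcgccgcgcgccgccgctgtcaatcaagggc
Cdca3: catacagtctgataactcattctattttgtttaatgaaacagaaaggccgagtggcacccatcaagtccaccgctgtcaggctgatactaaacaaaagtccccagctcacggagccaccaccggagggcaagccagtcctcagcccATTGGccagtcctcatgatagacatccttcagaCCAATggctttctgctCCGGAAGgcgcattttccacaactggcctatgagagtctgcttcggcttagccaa
Rab40c: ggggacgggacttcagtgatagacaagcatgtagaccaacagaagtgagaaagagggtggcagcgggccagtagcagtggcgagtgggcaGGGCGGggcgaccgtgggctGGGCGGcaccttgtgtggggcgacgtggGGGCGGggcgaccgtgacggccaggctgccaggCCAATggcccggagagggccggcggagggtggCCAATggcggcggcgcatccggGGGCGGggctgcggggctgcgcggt
Gata3: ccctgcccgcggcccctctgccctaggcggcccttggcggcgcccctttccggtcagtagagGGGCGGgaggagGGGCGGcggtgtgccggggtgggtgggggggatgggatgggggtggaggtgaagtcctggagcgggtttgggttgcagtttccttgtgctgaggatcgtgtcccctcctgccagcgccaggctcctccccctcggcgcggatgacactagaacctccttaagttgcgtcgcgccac
Il2ra: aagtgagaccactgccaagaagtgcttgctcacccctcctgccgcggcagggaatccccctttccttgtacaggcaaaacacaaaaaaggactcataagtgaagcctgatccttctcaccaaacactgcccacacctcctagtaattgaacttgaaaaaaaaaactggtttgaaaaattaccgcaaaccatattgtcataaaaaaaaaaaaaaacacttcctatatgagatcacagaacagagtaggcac
Zfp143: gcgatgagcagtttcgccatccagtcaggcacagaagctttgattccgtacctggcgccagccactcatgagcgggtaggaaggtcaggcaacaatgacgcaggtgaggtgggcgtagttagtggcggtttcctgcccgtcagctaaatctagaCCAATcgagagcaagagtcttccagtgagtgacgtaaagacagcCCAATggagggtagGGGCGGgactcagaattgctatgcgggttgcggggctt
Hnrnpa3: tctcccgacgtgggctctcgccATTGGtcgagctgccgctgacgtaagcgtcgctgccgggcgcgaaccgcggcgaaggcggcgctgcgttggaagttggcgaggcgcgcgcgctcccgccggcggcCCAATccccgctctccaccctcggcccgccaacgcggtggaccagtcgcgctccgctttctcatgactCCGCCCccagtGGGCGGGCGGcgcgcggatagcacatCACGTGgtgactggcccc
The Sp1 window held 8 matches, including CCAAT boxes and GC boxes side by side, and the Nfkbia window held a pair of matches to the NF-kB motif. Nfkbia encodes IkB alpha, an inhibitor of NF-kB that NF-kB itself induces. The Il2ra window held no match and had 3 CpG dinucleotides in its 300 bases, against 42 for Sp4 and 44 for Hnrnpa3. Sp1 and Sp4 encode zinc finger factors that bind GC boxes.

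In the authors' deposited tables, the regions had a median fold of -6.08 against Treg cells (quartiles -7.01 and -4.99, range -14.06 to -3.51) and of -6.03 against Th2 cells (quartiles -6.95 and -5.04, range -15.08 to -3.46). The smallest absolute fold in the whole tables was 3.48 against Treg cells and 3.46 against Th2 cells, so the set reaches down to the listing threshold. Regions listed only against Treg cells had a median absolute fold of 4.74, and those listed only against Th2 cells of 4.76. The 3 smallest mean folds of the set were at Arl15 (-3.51 and -3.73), at Focad (-3.72 and -3.78) and at a region of chromosome 16 (-3.61 and -3.93). Just outside the set, a region of Fbxl17 at chr17:63493196-63493446 had folds of -4.31 and -5.16 but was also listed for naive minus other effector cells, at 3.57, where the smallest listed value was 3.52. Near a listing threshold, membership can therefore separate regions that differ little in fold.

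**Figure D1:**
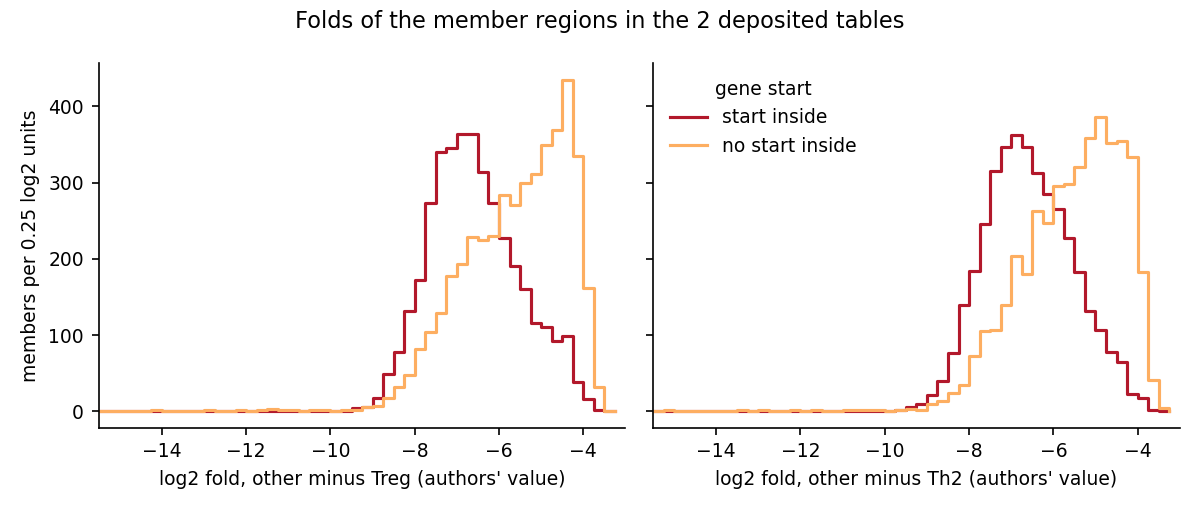
Number of regions by the authors' log2 fold of other effector minus Treg cells (left) and other effector minus Th2 cells (right), in steps of 0.25, for regions with and without a gene start inside. Regions with a start lie further from 0, with medians of -6.69 and -6.66, against -5.40 and -5.39 for regions without one.

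The set was rich in gene starts, a position that the rule did not use directly. Folds were larger in the set than in regions listed only against Treg or only against Th2 cells. Within the set the share with a start rose with fold, as given below, and the sets compared here were not matched for fold. Of the 8123 regions on chromosomes with start annotation, 3782 (46.6%, exact binomial interval 45.5% to 47.7%) held the start of a protein-coding or lncRNA gene. The share was 17.6% (16.7% to 18.5%) in regions listed only against Treg cells, 19.6% (18.8% to 20.5%) in regions listed only against Th2 cells, and 23.1% (21.1% to 25.1%) in regions listed in all 3 tables of other effector cells. Over all joined regions it was 17.0%. These intervals cover counting error only, since regions are not replicates of a condition, and only starts present in the RefSeq table are counted. Another 1848 regions had no start inside but lay within 10 kb of one, and 2493 (30.7%) lay farther away, against 52.2% and 51.1% of the regions listed only against Treg and only against Th2 cells.

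**Figure D2:**
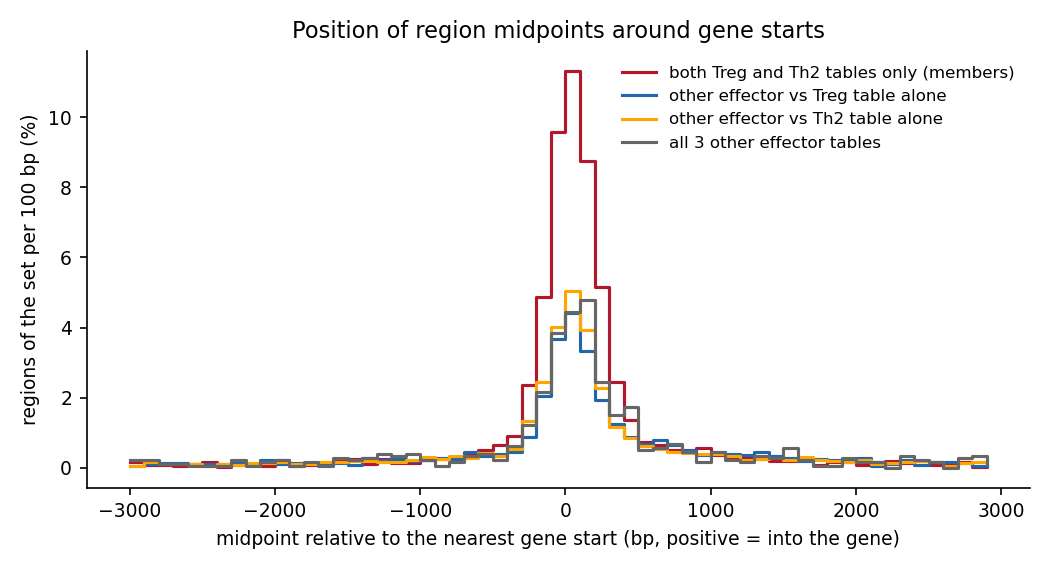
Share of regions per 100 bp by the distance of the region midpoint from the nearest gene start, for the set and for 3 other sets of listed regions. All 4 sets peak at the start and the set described here has the tallest peak. Its regions with a start inside had midpoints a median of 41 bp into the gene.

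Regions of the set were also wide. Their median width was 760 bp (quartiles 413 and 1054), against 400 bp for regions listed only against Treg cells, 318 bp for those listed only against Th2 cells and 779 bp for those in all 3 tables. Wide regions hold starts more often in every set, so the shares were compared within widths. Among regions of at least 400 and under 800 bp, 37.1% of the set held a start, against 17.3% and 21.1% of the regions listed only against Treg and only against Th2 cells and 11.7% of those in all 3 tables. Among regions of 1200 bp or more the shares were 78.4%, 64.9%, 73.4% and 50.8%. The set had the highest share in each of the 4 width classes, but its exact interval overlapped that of the regions in all 3 tables under 400 bp and that of the regions listed only against Th2 cells at 1200 bp or more.

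**Figure D3:**
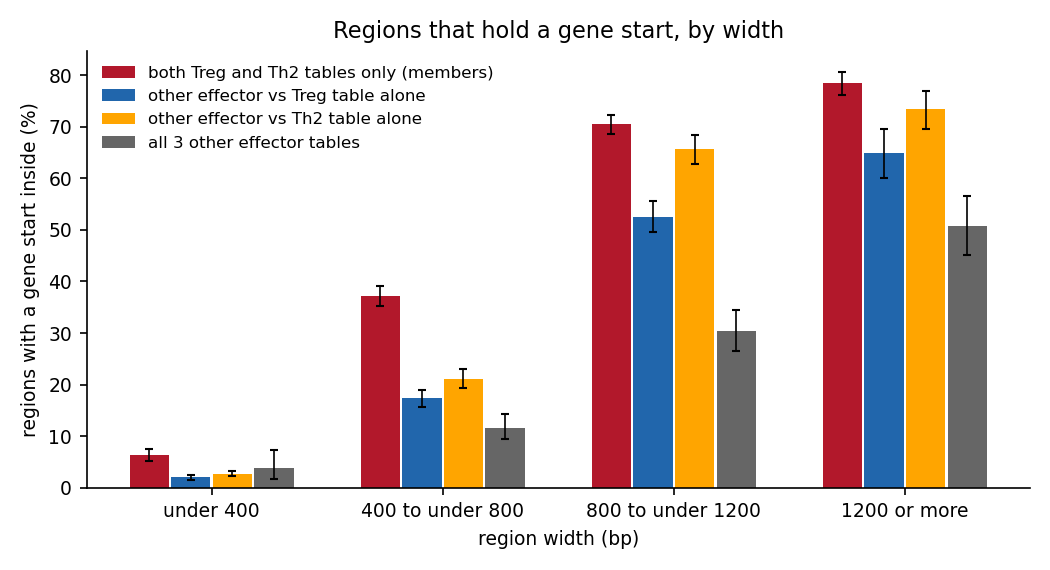
Share of regions that hold a gene start, by region width, with exact 95% binomial intervals as error bars. The set described here is the left bar of each group and is highest in each of the 4 width classes, from 6.29% under 400 bp to 78.4% at 1200 bp or more.

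Fold, width and position moved together within the set. The share of regions with a start inside was 2.82% at mean absolute folds of 3 to 4, 11.9% at 4 to 5, 36.2% at 5 to 6, 61.4% at 6 to 7, 74.5% at 7 to 8 and 77.7% at 8 to 9. It was 19.0% (4 of 21 regions) at 9 or more. Width and mean absolute fold had a Spearman rho of 0.69 across 8353 regions, which share the same libraries, and of 0.46 among regions with a start and 0.62 among those without. The folds of the set choose its members, so these relations describe the listed regions only.

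The largest folds were at regions with no annotated gene start. The first 3 lay together on chromosome 2, at chr2:98667058-98667380 (-14.06 against Treg and -15.08 against Th2 cells in the authors' deposited tables), chr2:98666179-98666722 (-12.92 and -13.45) and chr2:98662176-98662897 (-12.24 and -12.92). Others lay on chromosome 1 near Col19a1 (-11.71 and -12.08), on chromosome 9 near Rpusd4 (-11.34 and -12.20), on chromosome 14 and beside Mid1 on chromosome X (-11.45 and -10.90). A region of 3400 bp at chr17:39843191-39846590, the widest of the set, had -10.84 and -10.69. Whether reads map uniquely at these places was not examined.

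Among regions with a start inside, Nfkbia had the largest mean fold (-9.38 against Treg and -9.30 against Th2 cells), followed by Sp1 (-8.76 and -9.72), Fbrs (-9.13 and -9.34), Sp4 (-8.98 and -9.48) and Cdca3 (-8.85 and -8.90), a gene of mitotic entry. Rab40c, Ppp2r5a (a regulatory subunit of protein phosphatase 2A), Khsrp (an RNA-binding protein that promotes mRNA decay), the start of Arl6ip6 and Nab2 (a corepressor of EGR factors) completed the 10 largest, and were named after their values were seen. At all 10 the folds against Treg and Th2 cells differed by less than 1 log2 unit. The widest regions after the one on chromosome 17 were at Klf13 (2839 bp), Tsc22d2 (2759 bp), Arid5b (2613 bp) and Ywhaz (2381 bp).

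The 3782 regions held 5088 starts of 4479 genes. Of 17492 protein-coding genes in the start table, 3977 had a start inside a region of the set, which is 22.7%. A start inside any listed region was found for 8376 genes (47.9%), so 47.5% of the genes with a listed start had it in the set. Starts of 2 or more protein-coding genes were held by 406 regions, and 400 of 3618 regions with a protein-coding start (11.1%, 10.1% to 12.1%) held starts on both strands. Divergent promoters have such starts, but whether the starts point away from each other was not checked. The share with starts on both strands was 10.2% in regions listed only against Treg cells, 8.84% in those listed only against Th2 cells and 3.32% in those listed in all 3 tables. These sets were not matched for width. The interval of the set overlaps those of the first 2 and not that of the last (1.73% to 5.73%).

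Genes were grouped into 36 lists by function or cell type, and the share of each list's genes with a start inside the set was read against 22.7%. The 10 lists of general cell machinery together had 220 of 423 genes (52.0%, 47.1% to 56.9%). The 5 lists of T helper identity genes had 9 of 69 (13.0%, 6.14% to 23.3%), an interval that also reaches 22.7%. A promoter of either kind was often listed somewhere: 376 of the 423 machinery genes and 49 of the 69 identity genes had a start in some listed region. Of the listed starts, 58.5% of the machinery genes and 18.4% of the identity genes lay in the set. The other 21 lists together had 205 of 570 genes (36.0%, 32.0% to 40.1%), and 46.7% of their listed starts lay in the set. That was near the 47.5% of all protein-coding genes with a listed start. The lists were written with earlier results known, and their genes are not independent of each other.

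**Figure D4:**
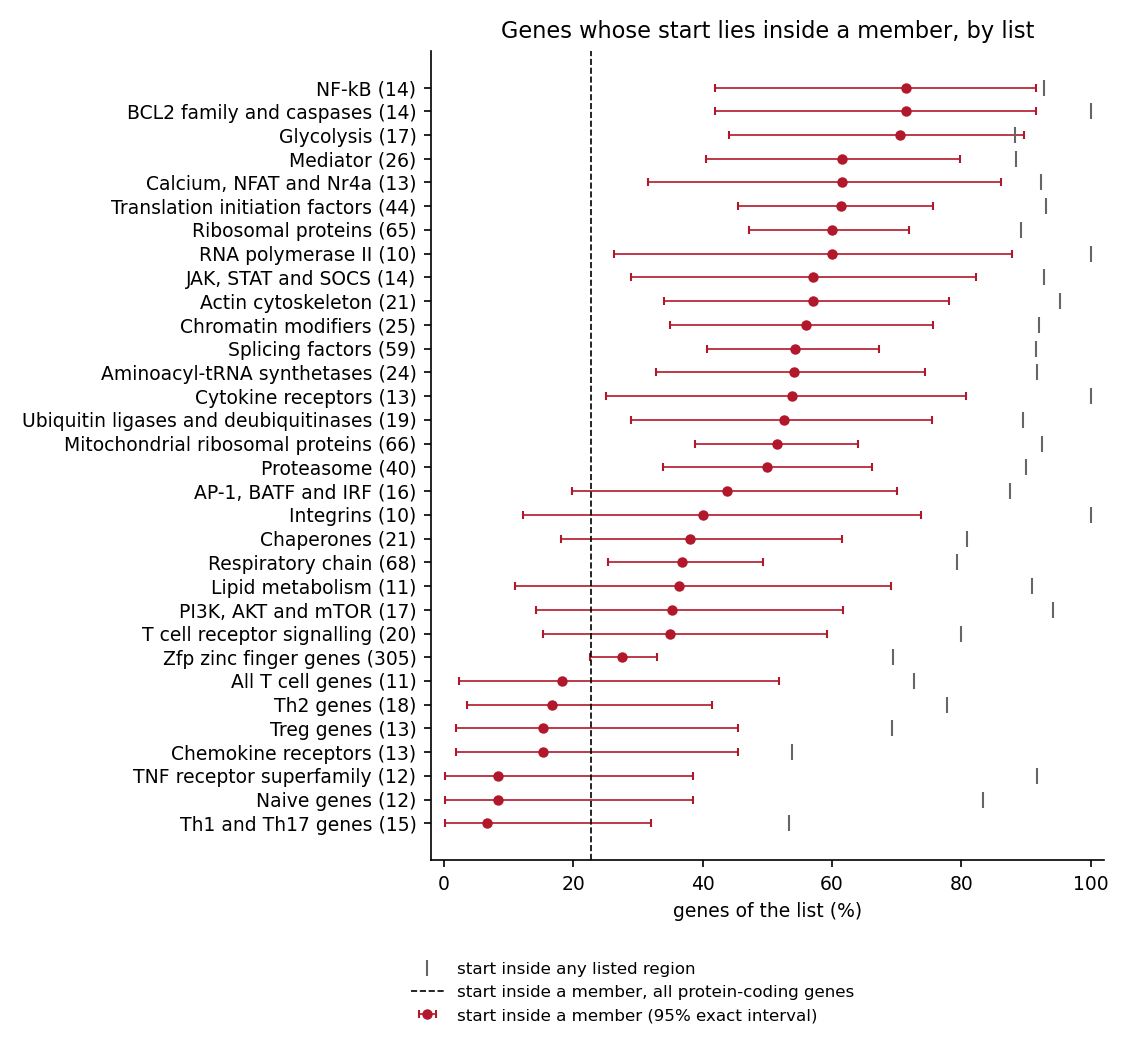
Share of the genes of each list whose start lies inside a region of the set (points, exact 95% intervals), with the share whose start lies in any listed region (grey ticks) and the value for all protein-coding genes (dashed line, 22.7%). The number of genes with an annotated start is in parentheses, and lists of fewer than 10 are left out. NF-kB and BCL2 family lists are highest at 71.4%, and the lists of T helper identity genes are among the lowest.

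Translation and protein turnover were well represented. Starts of 39 of 65 ribosomal protein genes (60.0%) lay in the set, as did 34 of 66 mitochondrial ribosomal protein genes (51.5%), 27 of 44 translation initiation factor genes (61.4%), 13 of 24 aminoacyl-tRNA synthetase genes (54.2%) and 20 of 40 proteasome genes (50.0%). Chaperone genes had 8 of 21 (38.1%, 18.1% to 61.6%), an interval that reaches 22.7%. Rpl11 had folds of -7.35 against Treg and -6.29 against Th2 cells at its start in the authors' deposited tables, and Eif1, which helps choose the start codon, had -8.13 and -7.54. Ribosomal protein genes have many processed copies in the genome, so counts at these genes can be split between copies. Of 68 respiratory chain genes 25 (36.8%) were included, for example Ndufv1 (-7.22 and -6.91), a subunit of complex I. Of the respiratory chain genes with a listed start, 46.3% had it in the set, against 47.5% of all such protein-coding genes. Chaperone genes were near that value too, at 47.1%. The same share was 67.2% for ribosomal protein, 55.7% for mitochondrial ribosomal protein and 65.9% for translation initiation factor genes. It was 59.1% for aminoacyl-tRNA synthetase and 55.6% for proteasome genes.

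RNA synthesis and processing showed a like pattern. Starts of 16 of 26 Mediator genes (61.5%), 6 of 10 RNA polymerase II subunit genes (60.0%) and 32 of 59 splicing factor genes (54.2%) lay in the set. Of their listed starts, 69.6%, 60.0% and 59.3% lay in the set, against 47.5% of all protein-coding genes with a listed start. Hnrnpa3, whose product binds RNA and whose promoter is shown above, had -8.80 and -8.60. Genes named Zfp, a large and mixed group of zinc finger genes, had 84 of 305 starts in the set (27.5%, 22.6% to 32.9%), an interval that reaches 22.7%. Zfp143 was among them at -9.03 and -8.46. Of the Zfp genes with a listed start, 39.6% had it in the set, below the 47.5% of all such protein-coding genes. Zfp36, whose product tristetraprolin speeds the decay of cytokine mRNAs, had all 4 of its 4 listed regions in the set.

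The signalling and survival lists ranged widely, read against the 22.7% of all protein-coding genes. The NF-kB list had 10 of 14 starts in the set, including Nfkb2 (-8.57 and -8.11), Birc3 (-8.47 and -9.10), Rela (-7.80 and -7.07) and Traf3 (-8.07 and -7.61). Nfkb1 had 5 of 28 and Nfkbia 4 of 12 listed regions in the set. The BCL2 family and caspase list also had 10 of 14, with Bcl2l1, which encodes the survival protein BCL-XL, at -8.85 and -8.45 and Bbc3, which encodes the proapoptotic PUMA, at -8.05 and -6.77. Glycolysis had 12 of 17, including Hk2 (-6.71 and -8.27) and Slc2a1, the glucose transporter GLUT1 (-7.43 and -6.92). Actin cytoskeleton genes had 12 of 21 (57.1%, 34.0% to 78.2%) and chromatin modifiers 14 of 25 (56.0%, 34.9% to 75.6%). T cell receptor signalling had 7 of 20 (35.0%, 15.4% to 59.2%) and the TNF receptor superfamily 1 of 12.

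JAK, STAT and SOCS genes had 8 of 14 starts in the set (57.1%, 28.9% to 82.3%). Stat6, which carries the IL-4 signal, had folds of -8.43 against Treg and -8.10 against Th2 cells, and Stat3 had -8.13 and -7.57. Stat4, which carries the IL-12 signal, had -7.62 and -6.64. Among cytokine receptor genes, 7 of 13 starts (53.8%, 25.1% to 80.8%) were included: Ifnar1, Ifngr1, Il21r, Il2rg, Il4ra, Il6ra and Tgfbr2. Il4ra, a subunit of the receptors for IL-4 and IL-13, had -7.34 and -7.31. In the AP-1, BATF and IRF list 7 of 16 starts were included (43.8%, 19.8% to 70.1%), an interval that reaches 22.7%. Among them were Fos (-7.40 and -8.09), Jun (-7.99 and -8.31) and Junb (-6.28 and -7.58), all early response genes. Of listed starts, 61.5% of the JAK, STAT and SOCS genes and 53.8% of the cytokine receptor genes lay in the set. For the AP-1, BATF and IRF list it was 50.0%, against 47.5% of all protein-coding genes with a listed start.

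Genes of T helper fates were considered singly. Of the 11 listed regions of Gata3, 4 were members, and they lay at chr2:9878340-9879025 over the start (-6.80 against Treg and -6.56 against Th2 cells), at chr2:9879155-9879820 (-7.11 and -7.31), at chr2:9884168-9884539 (-6.02 and -6.54) and at chr2:9854199-9854348 (-4.09 and -4.22). The Gata3 regions had differences of Treg minus Th2 cells between -0.52 and 0.24 log2 units. The starts of Il4 and Il13, which encode the cytokines of the Th2 response, were listed for naive against Th2 and other effector against Th2 cells, and so fell outside. Il5 had 1 member of 4 listed regions, at chr11:53737055-53737917 (-5.98 and -5.34). Il1rl1, which is a sort marker, had 3 of 18, Pparg 1 of 13, and Rad50, whose introns hold control elements of the Th2 cytokine locus, 0 of 5.

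Of the Treg genes, Foxp3 had no member among 6 listed regions. Il2ra had 5 of 17, with its start region chr2:11642356-11642963 at -7.28 against Treg and -4.76 against Th2 cells, and Il2ra encodes the CD25 used in the Treg gate. Ctla4, an inhibitory receptor, had 2 of 19 (-6.80 and -4.39 at chr1:60916569-60916803, -5.65 and -3.65 at chr1:60930622-60930996). Ikzf2, which encodes Helios, had 3 of 27, Il10 1 of 11 and Entpd1, which encodes the ectonucleotidase CD39, 4 of 14. Tbx21, the regulator of Th1 cells, had 0 of 3, and Ifng 1 of 8. Ptprc, the pan-leukocyte gene for CD45, had 4 of 18, with its start at -5.82 and -4.90. Cd3e had 0 of 5, and Cd4 had no listed region.

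As shares of listed regions, the T helper identity lists had 80 members of 1108 regions (7.22%) and the machinery lists 276 of 887 (31.1%), against 15.9% overall. Naive genes had the lowest share of the identity lists, at 16 of 434 (3.69%), and 5 of 86 Foxp1 regions were among them. Among lists of other cell types, myeloid genes had 11 members of 56 regions (19.6%) and epithelial and stromal genes 6 of 37 (16.2%), both close to or above 15.9% and above the identity lists. B cell genes had 2 of 29 (6.90%) and CD8 and natural killer genes 1 of 27 (3.70%). Of the 11 myeloid members, 7 belonged to Cebpb, a factor also used outside myeloid cells. These lists are too short to read at gene starts: 1 of 5 myeloid, 0 of 4 B cell, 0 of 7 CD8 and natural killer and 0 of 3 epithelial and stromal genes had a start in the set, with exact intervals that all reach above 22.7%. What part such cells have in the folds was not tested.

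Regions with and without a start inside were then counted by gene. Assignment was to the gene that holds the region or to the nearest one within 100 kb, and this placed 8214 regions at 6181 genes. Of these genes 4819 had 1 region and 74 had 5 or more. Mid1, which encodes a ubiquitin ligase of microtubules, had 11 of 21 listed regions in the set, and they include 2 of the 10 largest folds. Cytip, an adaptor that binds cytohesin, had 10 of 22, and Cyth1, which encodes cytohesin-1, had 9 of 25. Nsmce2 had 9 of 37, Ccr1 8 of 19, Elk3 8 of 21, Ptpn1 8 of 20 and Zmiz1 8 of 35. No Ccr1 member lay inside the gene or held a start. Arid5b had 7 of 21, Cebpb 7 of 19, Cflar 7 of 17, Chd2 7 of 32, Prex1 7 of 33, Rab8b 7 of 12 and Smad3 7 of 19. Ranking by count favours genes with many listed regions, and 15.9% of all joined regions were members. Cflar encodes the caspase-8 inhibitor c-FLIP, and Smad3 carries the TGF-beta signal.

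By share among genes with at least 8 listed regions, Kdm6b was highest with 6 of 8. It encodes a demethylase of histone H3 lysine 27. At 5 of the Kdm6b regions the difference of Treg minus Th2 cells was between -1.46 and 0.23 log2 units, while the region at chr11:69401258-69401619 had -6.94 against Treg and -3.89 against Th2 cells. Ncf4, a subunit of the phagocyte oxidase, and Trim7 had 5 of 8, Rab8b had 7 of 12, Mxi1 had 6 of 11 and Mid1 11 of 21. Bbc3, Csrnp1, Dhx40 and Dot1l, a histone H3 lysine 79 methyltransferase, had 4 of 8. In all, 2560 regions (30.6%) had another region of the set within 10 kb. By chromosome the share of listed regions that were members ranged over the autosomes from 12.8% on chromosomes 6 and 12 to 19.4% on chromosome 19.

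Because both tables share the other effector cells, the difference of the 2 folds gives Treg minus Th2 cells. At the 3 positions listed with the same coordinates in all 3 tables of these populations, it equalled the authors' own value. Across the set the median difference was 0.05 log2 units (quartiles -0.59 and 0.66, range -3.81 to 3.96). It was positive at 4347 regions and negative at 3968, and 5947 (71.2%) lay within 1 unit of 0. Only 466 (5.58%) were beyond 2. The smallest absolute fold in the table of Treg against Th2 cells was 3.95, and the rule removed every region listed there, which narrows this spread.

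**Figure D5:**
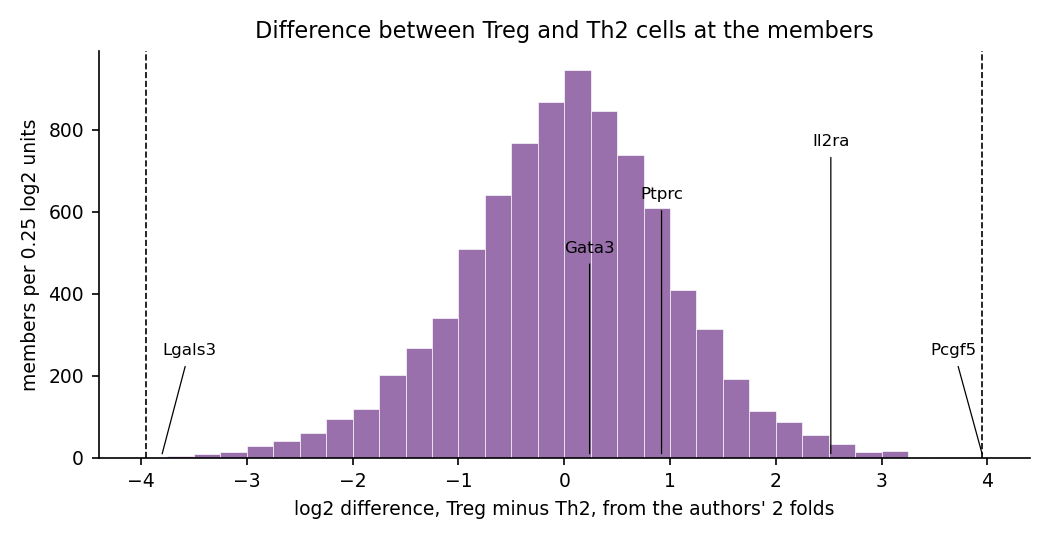
Number of regions by the log2 difference of Treg minus Th2 cells, computed from the authors' folds, in steps of 0.25. Dashed lines mark plus and minus 3.95, the smallest absolute fold in the table of Treg against Th2 cells. Named genes mark start regions of Gata3, Ptprc and Il2ra and the regions of Lgals3 and Pcgf5 at the extremes.

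The regions farthest toward Treg cells were at Pcgf5, a Polycomb subunit, with a difference of 3.96 (folds of -8.74 against Treg and -4.78 against Th2 cells), Sema4b (3.69), Pnrc2 (3.63), Ncoa3 (3.52) and Ifnar1 (3.43). None of these 5 regions held an annotated start. The midpoint of the Ncoa3 region lay 165 bp from a gene boundary, while the nearest start used here was 107073 bp away. Farthest toward Th2 cells were Lgals3, which encodes galectin-3, with -3.81 (-4.35 and -8.16), Tpcn2, an endolysosomal channel (-3.79), Cd14, a lipopolysaccharide coreceptor (-3.70), Jup (-3.69) and Smim3 (-3.68). The regions of Lgals3, Tpcn2 and Jup held a start. Those of Cd14 and Smim3 lie on chromosome 18, whose starts were not used, so they could not be scored. Pcgf5 was the only one of the 10 whose difference passed 3.95 in size, and it was not listed in the table of Treg against Th2 cells.

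By list, the members of the T helper identity lists had a median difference of 0.57, with 55 of 80 positive, against 4347 of 8353 in the whole set. Without the genes of the sort markers the median was 0.43, with 47 of 71 positive. Treg genes had 0.67 (18 of 25 positive) with Il2ra, the gene of the CD25 gate, and 0.30 (13 of 20) without it. Th2 genes had 0.12 (9 of 16), and 0.11 (7 of 13) without Il1rl1. Genes of all T cells had 0.91 (11 of 14) and naive genes 0.79 (12 of 16). Positive medians were not particular to identity genes: epithelial and stromal genes had 0.83 (6 of 6), the TNF receptor superfamily 0.75 (4 of 5), chemokine receptors 0.64 (11 of 18) and JAK, STAT and SOCS genes 0.56 (9 of 13). Both Ctla4 members were positive, at 2.00 and 2.41. The machinery lists had a median of 0.16, with 167 of 276 positive. Elk3, an ETS factor, had 6 of 8 positive with a median of 1.03, and Smad3 had 2 of 7 positive with a median of -0.51.

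Promoter windows of 300 bases, from 250 before to 50 after each start, were compared by what covers them. A region of the set wholly covered 4215 windows, other listed regions covered 4550, and 24086 were covered by none. Windows in the set had a median of 25 CpG dinucleotides (quartiles 19 and 33) and 64.3% G and C bases, against 23 and 62.7% in windows of other listed regions and 7 and 52.7% over all 32851 windows. Regions were also grouped by the CpG count of a promoter window, which covered only a part of the regions with a start. The median mean absolute fold was 6.36 at fewer than 10 CpG (147 regions) and 7.03 at 40 or more (410 regions). The median width was 851 bp and 1224 bp at the same ends. Fold and width cannot be told apart here.

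Motifs were searched on both strands, and a window counted once however many matches it held. The letters of ETS factors (CCGGAAG) were in 24.0% of the windows in the set (22.7% to 25.3%), 18.7% of windows in other listed regions (17.5% to 19.8%) and 8.86% of all windows. GC boxes of SP and KLF factors (GGGCGG) were in 74.7%, 69.3% and 35.7%, and NRF1 letters (CGCATGCG) in 5.29%, 3.69% and 1.87%. CCAAT boxes of NFY were in 40.4%, 37.6% and 37.4%, YY1 letters (AAGATGG) in 8.56%, 6.26% and 6.34%, E-boxes (CACGTG) in 12.2%, 10.4% and 7.15%, and CTCF letters (CNAGGGGGC) in 5.50%, 4.95% and 2.75%. For NFY, E-box and CTCF letters the exact intervals of the set and of other listed regions overlapped. Base composition differs between these sets of windows, and its part in the shares was not tested.

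Of the other motifs, 5 were less frequent in the set than over all windows: RUNX, GATA, TATA, AP-1, and TCF and LEF. RUNX letters (TGTGGTT) were in 2.63% of the windows in the set (2.17% to 3.16%), 4.51% of those in other listed regions (3.92% to 5.15%) and 5.27% of all windows. GATA letters (AGATAA) were in 4.06%, 5.21% and 11.2%, TATA boxes (TATAAA) in 4.63%, 5.01% and 13.6%, AP-1 letters (TGANTCA) in 3.87%, 4.57% and 7.81%, and TCF and LEF letters (CTTTGAA) in 2.51%, 3.41% and 5.14%. CRE letters (TGACGTCA) were in 3.68%, 3.82% and 1.79%. NF-kB letters (GGGANTTTC) were in 1.12%, 0.835% and 1.11%, and the Nfkbia promoter shown above was among the 47 windows of the set that held them. For GATA, TATA, AP-1, TCF and LEF, CRE and NF-kB letters the exact intervals of the set and of other listed regions overlapped. A match to letters is not evidence of binding, and GATA letters can overlap TATA letters.

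Noncoding genes were also found at the regions. Starts of 502 of 9533 lncRNA genes lay in the set, a lower share than the 22.7% of protein-coding genes (3977 of 17492). The share of lncRNA genes with a start in any listed region is not given, so the lower share is not shown to be particular to the set. Of the 502 lncRNA genes, 335 shared the region with a protein-coding start. Gas5, a host gene of small nucleolar RNAs, had -8.31 against Treg and -6.78 against Th2 cells, Snhg1 had -7.58 and -6.83, and Morrbid, which limits Bcl2l11 in myeloid cells, had -8.03 and -7.33. They were named after their values were seen. Of 1005 annotated miRNA hairpins, 38 lay wholly inside 33 regions, among them Mirlet7i (-7.30 and -7.03) and Mir484 (-7.52 and -6.33). No share over all listed regions is given for hairpins, so their count is a description only. The tables measure accessibility of DNA, and no transcript of these genes was measured.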

How the data were processed

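ATAC-seq libraries of 4 T helper populations (3 biological replicates each, per the labels' protocols) were summarised by the authors as 6 tables of differential regions. The values are log2 folds deposited by the authors, made with DiffBind per the submitters' processing notes. For the aligner, peak caller, listing threshold and library depths, the sources used here give nothing. The notes name mm9, but 21.7% of region midpoints lay within 1 kb of a RefSeq start on GRCm38.p6, against 14.3% after a shift of 1 kb and 4.13% after a shift of 10 kb, so coordinates are given as GRCm38, counted from 1.

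Rows were joined where they overlapped by 1 bp or more (Python 3.11.15, pandas 2.3.3), and bedtools 2.31.1 gave the same 52537 regions. The steps were tested on simulated intervals. Starts, genes and promoter windows are from RefSeq tables, in which 17492 of 21887 protein-coding genes have a start; starts on chromosome 18 were not used here. Shares carry exact (Clopper-Pearson) 95% intervals from scipy 1.17.1. Regions were assigned to the gene that holds them or the nearest gene within 100 kb, and all 1324 list entries matched a gene symbol. The tables hold no values per library, so no test across samples was made.

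The members and lists were chosen with earlier results of these data known. Named were T helper genes (some of the genes chosen are not reported here), the genes with most members or the highest share, the regions of largest, smallest and most unequal fold, the widest regions, and in each list genes with most members. Further list genes are given as examples of starts and were chosen after their values were seen. Alternatives changed the overlap, the fold minimum, the chromosomes, the distances, the starts used and the motif window.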

Additional observations from a re-analysis of the deposited data

How the results depend on the processing

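The count of 8353 regions stayed within 1.5 times under each alternative, from 6682 with folds at least 1 log2 unit above the smallest listed to 11968 when regions listed in both tables were taken whatever the other tables held, a choice added after seeing the data. With that higher fold minimum, 59.7% of the regions lay within 1 kb of a gene start or end (52.6% in the main result), 54.9% held a start, the median folds were -6.46 against Treg and -6.35 against Th2 cells, and the median width was 858.5 bp. With the wider choice of regions the same values were 42.4%, 37.5%, -5.87, -5.83 and 713 bp. The share near a gene end was 45.7% within 500 bp and 59.0% within 2 kb, and 44.5% of regions held a protein-coding start. In the central 150 of 300 bases, the motif shares in windows of the set were 11.7% for ETS, 2.82% for NRF1, 30.5% for NFY, 57.1% for SP and KLF, 3.11% for YY1, 2.37% for CRE, 2.02% for AP-1, 1.35% for RUNX, 6.50% for E-box, 2.33% for GATA, 0.664% for NF-kB, 1.19% for TCF and LEF, 3.42% for CTCF and 1.76% for TATA letters; a shorter window has fewer places for a match. List counts moved for 3 of 36 lists with assignment within 10 kb and for 18 of 36 when genes replaced regions as the unit. The 3 lists were those of myeloid genes, chemokine receptors, and CD8 and natural killer genes. Leaving out the genes of the sort markers, also added after seeing the data, lowered the median difference of Treg minus Th2 cells for Treg genes to 0.30, against 0.67 with them. No direction reversed under these alternatives. The tables list only differential regions, so an unlisted region is not shown to be equal between populations, and depth and replicate error are unknown. No paired analysis was possible because the tables hold no values per sample.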
